A study of Saccharomyces cerevisiae with 159 samples.

Results

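The small-subunit processome is the nucleolar particle in which the first steps of making the 40S ribosomal subunit take place. It forms on the nascent ribosomal RNA precursor around the U3 small nucleolar RNA, and folds, cleaves and modifies the 18S rRNA region. Its proteins enter mostly as pre-built modules: UtpA binds the 5′ external transcribed spacer first, UtpB and the U3 particle follow, and the Mpp10 complex, the GTPase Bms1 and many single factors join on the 18S domains. In budding yeast these genes belong to the ribosome biogenesis regulon, which growing cells express strongly and which TORC1 and PKA, through factors such as Sfp1, Stb3, Dot6 and Tod6, keep in step with nutrient supply. The 38 genes described here were listed by name, as protein components of this particle and its immediate partners. No measured value enters that rule, though earlier results of these data were known when it was written. All 38 were found among the 7130 features of the table. They are 7 UtpA genes, 6 UtpB genes, 4 genes of the Mpp10 complex, BMS1 with RCL1, the U3 protein gene RRP9, the RNA-modifying enzymes EMG1 and KRE33, NOP14 with NOC4, the 3 genes ENP2, BFR2 and LCP5, 7 other UTP genes, and SOF1, KRR1, ENP1 and RRP5.

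The table covers 8 experiments with budding yeast on how arrested cells change their gene expression, with 159 RNA-seq libraries in all. In the cdc28 experiment, cdc28-13 (A39000), which stops in G1 at 37°C, was compared with cycling WT (A2587) at 2, 4, 6, 8 and 9 h in YEPD at 37°C. Each group had 3 libraries, except at 4 and 6 h in cdc28-13, which had 1 each. The cdc20 and cdc15 experiments compared cdc20-1 (A937, metaphase arrest) and cdc15-2 (A2596, anaphase arrest) with WT at 37°C, with 1 library per strain and time. The alpha factor experiment treated log-phase bar1Δ cells (A2589), which lack the protease that destroys the pheromone, with 5 µg/mL alpha factor or with DMSO at 30°C. Every 2 h another 2 µg/mL of alpha factor, or DMSO, was added. There was also 1 library per time. In the stationary phase and rapamycin experiments, strains labelled haploid (A2587) and diploid (A33728) grew in YEPD at 30°C for 2 to 24 h or received 5 nM rapamycin, an inhibitor of TORC1, for 0 to 5 h, with 2 libraries per group apart from 1 haploid library at 4 h of growth. The dose is that of the labels, while the study's supplement gives a lower dose for the diploid, so strain and dose cannot be told apart in the rapamycin comparisons between strains. The Bcy1 experiment paired WT, cdc28-13, cdc20-1 and cdc15-2 with strains in which BCY1, the inhibitory subunit of PKA, carries an auxin-inducible degron and the RFA1 promoter (AID-BCY1). These strains alone also carry the plant F-box protein osTIR. All 8 strains received 500 µM auxin after 2 h and again after 4 h at 37°C, and each group had 2 libraries except WT at 2 h with 1. In the prototrophy experiment a prototrophic (A41270) and an auxotrophic (A17896) cdc28-13 strain were released from alpha factor at 37°C, with 1 library per strain and time. Nothing in the labels says whether libraries of a group came from separate cultures, so the spread between them may be partly technical. The study describes growth into stationary phase and rapamycin treatment as single experiments, and the 2 libraries of a group there may be repeats from 1 culture. Their SDs and calls would then measure technical spread only.

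Levels are given as rescaled TPM, the deposited TPM (transcript abundance scaled to a fixed total per library) divided by their sum over the 6678 nuclear open reading frames outside the ribosomal DNA and multiplied by 1000000. Differences are on the log2(rescaled TPM + 1) scale, which understates the change of low genes, and a gene was called at a limma adjusted p under 0.05 (Benjamini-Hochberg over all genes tested in that experiment). All values are relative to the mRNA of a culture, so that fewer cells expressing a gene and less RNA per cell cannot be told apart. In the cdc28, stationary phase and rapamycin experiments rRNA took 75.04% to 84.1% of the TPM, and the low values lay in steps of 1 read. The libraries then held an estimated 75479 to 218212 reads on nuclear open reading frames, and the 38 genes together 34 to 3078, so that single genes often rested on a few reads. In the other experiments rRNA took 0.322% to 33.4% and the depth is unknown.

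Some labels did not match the data. Libraries labelled diploid expressed the a-specific receptor gene STE2 at 44.7 to 369.5 rescaled TPM in the stationary phase experiment and 161.7 to 466.8 in the rapamycin experiment, against 10.1 to 348.1 and 177.5 to 438.5 in the haploid libraries. MATa/MATα diploids do not express STE2 or the haploid-specific gene STE4, which these libraries also carried at 22.8 rescaled TPM or more. They thus lacked the expression state of the MATa/MATα genotype in their labels, which says nothing of their DNA content, and they are called "labelled diploid" below. In the Bcy1 experiment WT, WT AID-BCY1, cdc20-1 and cdc15-2 AID-BCY1 expressed the α-specific receptor gene STE3 at 100.0 to 247.2 rescaled TPM, and the other 4 strains at 1.17 to 8.83. Of the first 4, cdc20-1 (A937) is listed as MATα, as its STE3 level shows, but WT (A2587), WT AID-BCY1 (A40439) and cdc15-2 AID-BCY1 (A40501) are listed as MATa. The cdc20-1 and cdc15-2 pairs therefore differed in mating type as well as in the degron, which cannot be told apart. The same holds for cdc20-1 against WT in the cdc20 experiment, where STE3 stood at 143.0 to 165.4 in cdc20-1 and 4.93 to 7.11 in WT.

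The promoters of these genes shared 2 short elements that the choice of genes did not use. The PAC element (GATGAG, bound in yeast by Dot6 and Tod6) lay within the 300 bases before the start codon, on either strand, in 33 of the 38 genes (86.8%), and the RRPE element (AAAAATTT, bound by Stb3) in 31 (81.6%). Of 5990 nuclear open reading frames with annotation, 1146 (19.1%) held PAC and 909 held RRPE. Both elements stood before 28 of the 38 genes (73.7%) and before 5.61% of all. Among 57 genes of small-subunit ribosomal proteins, PAC was found in 8, RRPE in 8 and both in 0, whereas 46 of 54 large-subunit assembly factors had both. PAC matches lay a median of 106.5 bases from the start codon and RRPE matches a median of 133 bases. The stretches below, read from the R64 genome (sacCer3) on the gene's strand, show the usual order of RRPE followed by PAC, and the genes that lack 1 of the 2. Capitals mark RRPE (AAAAATTT or its reverse complement AAATTTTT) and PAC (GATGAG).
UTP10 (YJL109C), chrX:217396-217434: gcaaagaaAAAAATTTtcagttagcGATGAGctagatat
PWP2 (YCR057C), chrIII:223359-223402: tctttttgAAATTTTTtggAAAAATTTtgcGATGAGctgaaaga
BMS1 (YPL217C), chrXVI:143264-143300: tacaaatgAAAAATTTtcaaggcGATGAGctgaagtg
ENP1 (YBR247C), chrII:714562-714598: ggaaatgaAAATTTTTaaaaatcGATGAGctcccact
RRP5 (YMR229C), chrXIII:731261-731308: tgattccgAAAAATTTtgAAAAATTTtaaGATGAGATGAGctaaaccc
MPP10 (YJR002W), chrX:438782-438803: aattttgcGATGAGctcttgaa
RRP9 (YPR137W), chrXVI:802231-802252: attttataGATGAGctttgatt
UTP7 (YER082C), chrV:326048-326069: ttctaagcGATGAGttcgtgaa
UTP30 (YKR060W), chrXI:556385-556408: tctatctgAAATTTTTcaaattta
RRP5, whose product acts in the assembly of both ribosomal subunits, carried 2 RRPE matches and 2 overlapping PAC matches. MPP10, RRP9 and UTP7 had PAC alone, as did ENP2 and UTP13, and UTP30, UTP4 and UTP15 had RRPE alone. UTP22 and EMG1 had neither within this window. A match here is a description of the letters, not a measured binding site.

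In growing cells the 38 mRNAs lay close together. In the 4 WT libraries at 4 and 6 h of the Bcy1 experiment, the median of the 38 genes was 106 rescaled TPM, against 42.0 for all nuclear open reading frames. SAS10, a Mpp10 complex subunit, was highest at 199 ± 53.9 rescaled TPM (SD, n = 4), followed by EMG1, a methyltransferase of 18S rRNA, at 186 ± 22.4 and KRR1 at 182 ± 31.96. The UtpB genes UTP6 at 56.7 ± 16.1 and UTP18 at 58.8 ± 16.6 were lowest, and UTP6 still stood at percentile 59.2 of all nuclear open reading frames. The highest mean was 3.51 times the lowest, and the ranges of all 37 pairs of neighbours in that order overlapped.

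In the cdc28 experiment the processome mRNAs of cdc28-13 were near WT at 2 h and lower from 4 h on, with 1 cdc28-13 library each at 4 and 6 h. At 2, 4, 6, 8 and 9 h the 38 genes together took 0.470% ± 0.018, 0.286%, 0.296%, 0.201% ± 0.019 and 0.234% ± 0.005 of the nuclear mRNA TPM in cdc28-13, against 0.500% ± 0.016, 0.701% ± 0.006, 0.460% ± 0.020, 0.527% ± 0.023 and 0.486% ± 0.018 in WT (SD, n = 3, but a single cdc28-13 library at each of 4 and 6 h). WT itself was higher at 4 h than at its other times. The ranges of the strains overlapped at 2 h and were far apart at 8 and 9 h. The stress genes HSP12 and CTT1, markers of the environmental stress response, were called higher in cdc28-13 at 9 h (log2 differences of 4.45 ± 0.20 and 6.71 ± 0.88), and their part in the processome values was not tested. No gene of the 38 was called at 2 h, when 1.15% of all genes were called in either direction, and 1 of the 38, UTP22, was higher at an unadjusted p under 0.05. At 8 h, 31 genes were called lower and 1 higher (all genes: 21.7% lower and 17.5% higher). At 9 h, 26 were called lower and 1 higher (all genes: 19.1% and 17.1%), with a median log2 difference of -1.44 over the 38 and -0.12 over all genes. With the single cdc28-13 libraries, which were assumed to vary like the other groups, 19 genes were called lower at 4 h (5.46% of all genes) and 6 at 6 h (6.48% of all genes). Those 2 counts moved to 35 and 31 when the deposited values were not rescaled, and the second was 3 without the first or the second WT library at 6 h.

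**Figure D1:**
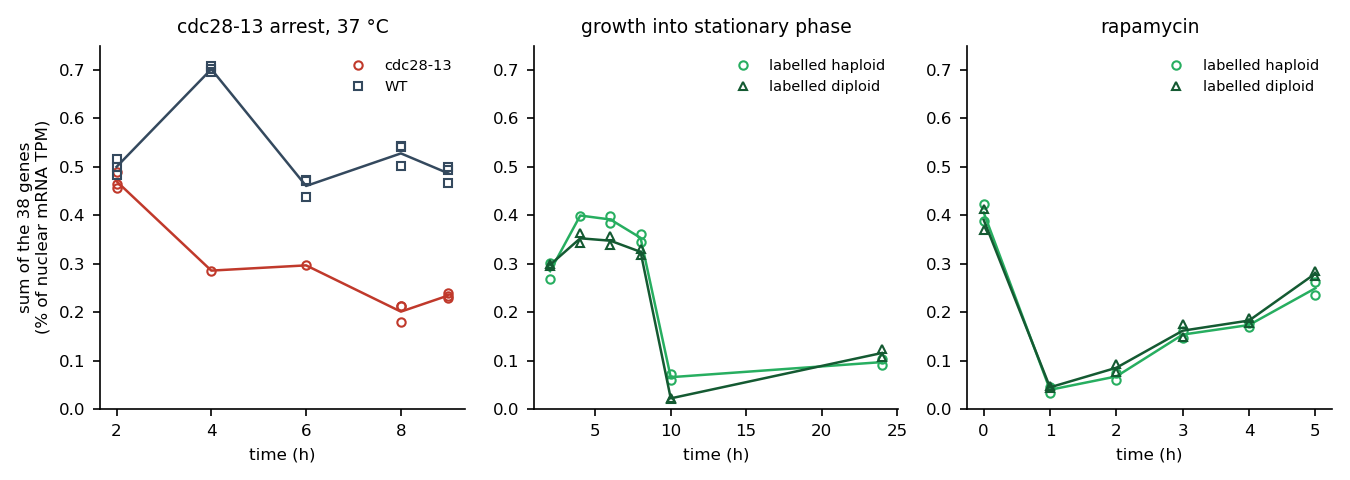
Sum of the 38 genes as a percent of nuclear mRNA TPM (vertical axis) against time in hours, for the cdc28 experiment, growth into stationary phase and rapamycin, with a point for each library and a line through the group means. The cdc28-13 libraries lie below WT from 4 h on, the stationary phase cultures drop between 8 and 10 h, and the rapamycin cultures drop within 1 h and climb until 5 h.

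UTP10, a large UtpA scaffold protein, fell furthest among the genes with reads in all 6 libraries at 9 h. It had 37.5, 15.1 and 43.1 rescaled TPM in cdc28-13 at 9 h, against 193, 202 and 178 in WT, which were an estimated 18, 6 and 19 reads against 161, 200 and 142. The groups did not overlap, and the log2 difference was -2.67 ± 0.29 (SE, adjusted p = 4.4e-07). At 2 h the same gene had 201, 197 and 165 rescaled TPM in cdc28-13 and 152, 208 and 177 in WT. RRP5, at 83.4, 99.1 and 90.1 rescaled TPM in cdc28-13 and 233, 247 and 246 in WT, and the UtpB gene PWP2, at 60.1, 68.8 and 52.2 in cdc28-13 and 176, 157 and 171 in WT, were likewise lower in every library. BMS1, the GTPase of the particle, had 87.2, 46.1 and 54.2 rescaled TPM in cdc28-13 at 9 h and 142, 141 and 143 in WT. RRP9 had 19.4, 55.7 and 35.3 in cdc28-13 and 133, 144 and 116 in WT. ENP1 had 23.3, 47.5 and 67.3 in cdc28-13 and 127, 137 and 133 in WT. All of these were called lower.

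By module, 6 of 7 UtpA genes and 5 of 6 UtpB genes were called lower at 9 h, and 1 of 4 genes of the Mpp10 complex (MPP10). At 8 h the counts were 7 of 7, 5 of 6 and 3 of 4, and differences between modules were not tested. SAS10 differed by -0.34 ± 0.19 at 9 h (adjusted p = 0.17) and was called at neither time. IMP3 and IMP4 were called at 8 h (-3.25 ± 0.94 and -2.95 ± 1.02) and not at 9 h (-0.94 ± 0.94 and -0.66 ± 1.02). These 2 genes rested on 1 to 5 reads per cdc28-13 library at 9 h, and each had a cdc28-13 library at 0 at 8 h. BMS1 was called and its partner RCL1, an RNA cyclase-like protein, was not (-0.14 ± 0.35), and UTP11 differed by 0.06 ± 0.38. The fit gave LCP5 the largest fall, -3.78 ± 1.05 (adjusted p = 0.0078), but its libraries held 0, 26.1 and 22.9 rescaled TPM in cdc28-13, against 149, 114 and 97.2 in WT. SOF1 (-2.65 ± 0.45) and UTP18 (-2.57 ± 0.40) followed UTP10 in size.

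**Figure D2:**
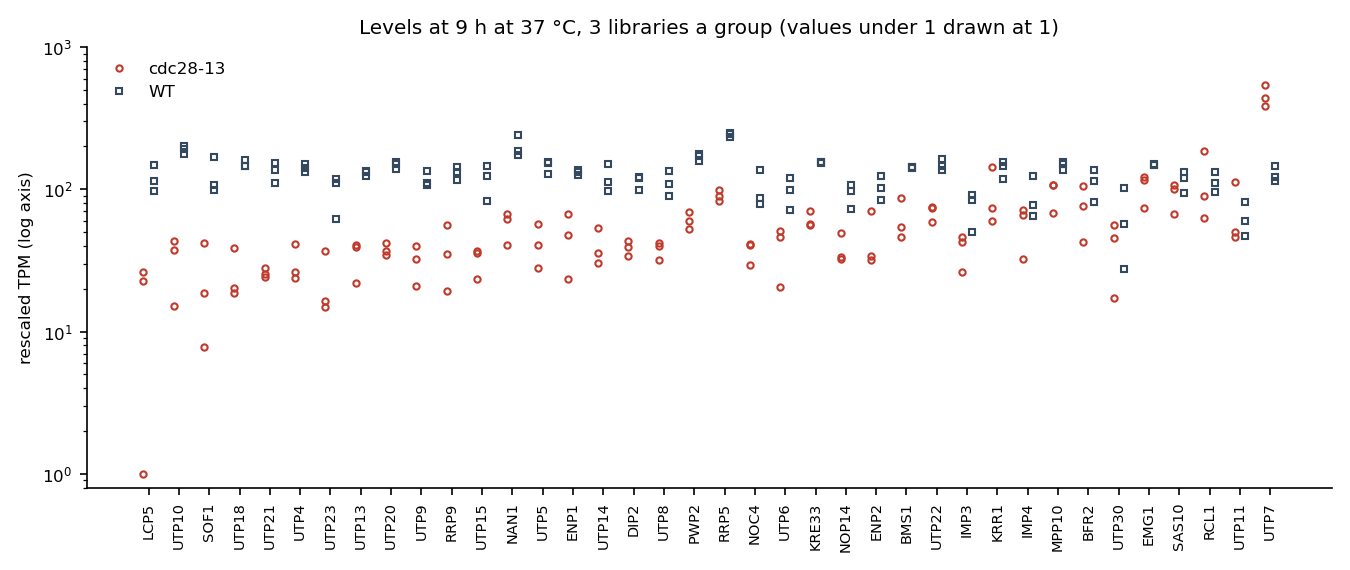
Rescaled TPM of each of the 38 genes (log axis) in the 3 cdc28-13 and the 3 WT libraries at 9 h at 37°C, with values under 1 drawn at 1. Most genes sit lower in cdc28-13, and UTP7, the gene called higher, sits at 385, 544 and 440 against 146, 122 and 115.

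UTP7, an essential WD-repeat component of the particle, went the other way. It had 390, 340 and 295 rescaled TPM in cdc28-13 at 8 h, against 76.5, 170 and 149 in WT, and 385, 544 and 440 in cdc28-13 at 9 h, against 146, 122 and 115 in WT. The log2 difference at 9 h was 1.82 ± 0.23 (adjusted p = 3.1e-06), while at 2 h UTP7 had 143, 136 and 118 rescaled TPM in cdc28-13 and 160, 168 and 166 in WT. SER3, a serine biosynthesis gene that ends 176 bases from the end of UTP7 on the opposite strand (chrV:322686-324095), had 423, 489 and 273 rescaled TPM in cdc28-13 at 9 h and 84.1, 88.5 and 107 in WT. How the counting treated strand is not given in the sources used here, and the part of SER3 in the UTP7 values was not tested. In cdc20-1 at 9 h, SER3 stood at 281 rescaled TPM against 87.3 in WT, with UTP7 at 172 against 194, and in cdc15-2 at 9 h SER3 stood at 169.3 against 96.56 with UTP7 at 149.6 against 175.6. SER3 in the Bcy1 experiment had 564.6 and 555.7 rescaled TPM in cdc28-13 at 4 h, against 112.2 and 115.9 in WT, with UTP7 at 191 and 167 in cdc28-13, against 140 and 177 in WT. In the cdc28 experiment SER3 had 411.4, 367.6 and 434.9 rescaled TPM in cdc28-13 at 8 h, against 90.83, 139.2 and 110.9 in WT. The single cdc28-13 library at 6 h had SER3 at 313.3, against 73.97, 91.48 and 51.96 in WT. UTP7 there had an estimated 34.2 reads against 22.1, 24.2 and 33.1, not scaled for depth. At 4 h SER3 had 159.9 against 169.6, 179.4 and 158.5, and UTP7 an estimated 38.1 reads against 48.3, 56.4 and 58.2.

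Whether the difference between the strains changed during the arrest was tested as an interaction. The cdc28-13 minus WT difference fell between 2 and 9 h in 22 of the 38 genes and rose in UTP7 (all genes: 11.6% fell and 10.2% rose), with a median change of -1.35. UTP10 changed by -2.74 ± 0.41 (adjusted p = 5.1e-05) and UTP7 by 2.14 ± 0.33 (adjusted p = 6.1e-05). The lists of related genes stood side by side as follows at 9 h. Among other small-subunit assembly factors, 21 of 33 were called lower and 1 higher (median -1.28). Among large-subunit assembly factors, 38 of 54 were called lower (median -1.66), and among small-subunit ribosomal proteins 51 of 57 were called lower and 1 higher (median -2.85).

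The replicated libraries of the 2 other cell cycle mutants come from the Bcy1 experiment, where each parent was compared with WT over 4 and 6 h. By STE3, cdc28-13 and cdc15-2 differed from WT in mating type there and cdc20-1 did not. In cdc28-13, 7 of the 38 genes (18.4%) were called lower, a share close to that of all genes (19.6%). The median was -0.23 over the 38 and 0.10 over all genes. The 38 genes took 0.423% ± 0.046 of nuclear mRNA TPM at 4 h and 0.306% ± 0.052 at 6 h in cdc28-13. In WT they took 0.435% ± 0.078 and 0.420% ± 0.178 (SD, n = 2), and the ranges overlapped at both times. IMP4 (-0.81 ± 0.18), UTP30 (-0.77 ± 0.15), UTP23 (-0.68 ± 0.20) and IMP3 (-0.66 ± 0.14) changed most. Without the first WT library at 6 h, 20 genes were called lower. In cdc20-1, 3 genes were called lower and 3 higher (all genes: 18.7% lower and 34.7% higher). When each library was centred on its median, the split was 13 lower and 2 higher, and leaving out 1 library gave 2 to 8 lower, with 8 without the first cdc20-1 library at 4 h. In cdc15-2, UTP30 alone was called lower (9.93% of all genes), and the median was 0.07. That count was 3 without the first WT library at 6 h or the first cdc15-2 library at 4 h.

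UTP22, a subunit of UtpC and of the CURI complex that holds Ifh1, a coactivator of ribosomal protein genes, was higher in cdc20-1. In the Bcy1 experiment it had 413 and 234 rescaled TPM at 4 h and 369 and 333 at 6 h in cdc20-1, against 78.6 and 114 at 4 h and 72.6 and 130 at 6 h in WT, a log2 difference of 1.77 ± 0.19 (adjusted p = 7e-09). In the cdc20 experiment it had 302, 254, 307 and 287 rescaled TPM in cdc20-1 at 2, 4, 6 and 9 h and 159, 147, 137 and 164 in WT. PRP31, the splicing factor gene that starts 269 bases after UTP22 on the same strand (chrVII:666341-667825), moved with it, at 95.5 to 125 rescaled TPM in cdc20-1 in those libraries and 36.4 to 40.4 in WT. Its part in the UTP22 values was not tested. cdc20-1 and WT differed in mating type in the cdc20 experiment, and both expressed STE3 in the Bcy1 experiment. The part of mating type in the UTP22 values was not tested.

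The single-library time courses give values without a replicate check. In cdc20-1 the 38 genes took 0.436%, 0.364%, 0.458% and 0.429% of nuclear mRNA TPM at 2, 4, 6 and 9 h, against 0.614%, 0.562%, 0.519% and 0.632% in WT. The median differences over the 38 were -0.61, -0.73, -0.28 and -0.65, with 36, 37, 27 and 36 genes below 0, where 34.8%, 35.1%, 33.3% and 33.1% of all genes lay below 0. In these single libraries the difference was present at the first time point. In the Bcy1 experiment the shares at 2, 4 and 6 h were 0.529%, 0.426% and 0.493% in cdc20-1. WT there had 0.317% (1 library), 0.435% and 0.420%, so that cdc20-1 was not lower at 2 or 6 h. In cdc15-2 the shares were 0.557%, 0.432%, 0.347%, 0.321% and 0.310% at 2, 4, 6, 8 and 9 h, against 0.596%, 0.570%, 0.563%, 0.629% and 0.583% in WT. The medians there went further below 0 with time up to 8 h, at -0.09, -0.42, -0.77, -1.05 and -0.996, and 30 genes were below 0 at 2 h and all 38 at each later time (all genes: 47.4%, 36.2%, 36%, 34.5% and 30.3%). RRP5 had 72.6 rescaled TPM in cdc15-2 at 9 h and 176 in WT. In the Bcy1 experiment cdc15-2 had shares of 0.629%, 0.472% and 0.380% at 2, 4 and 6 h, above those of WT there at 2 and 4 h.

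**Figure D3:**
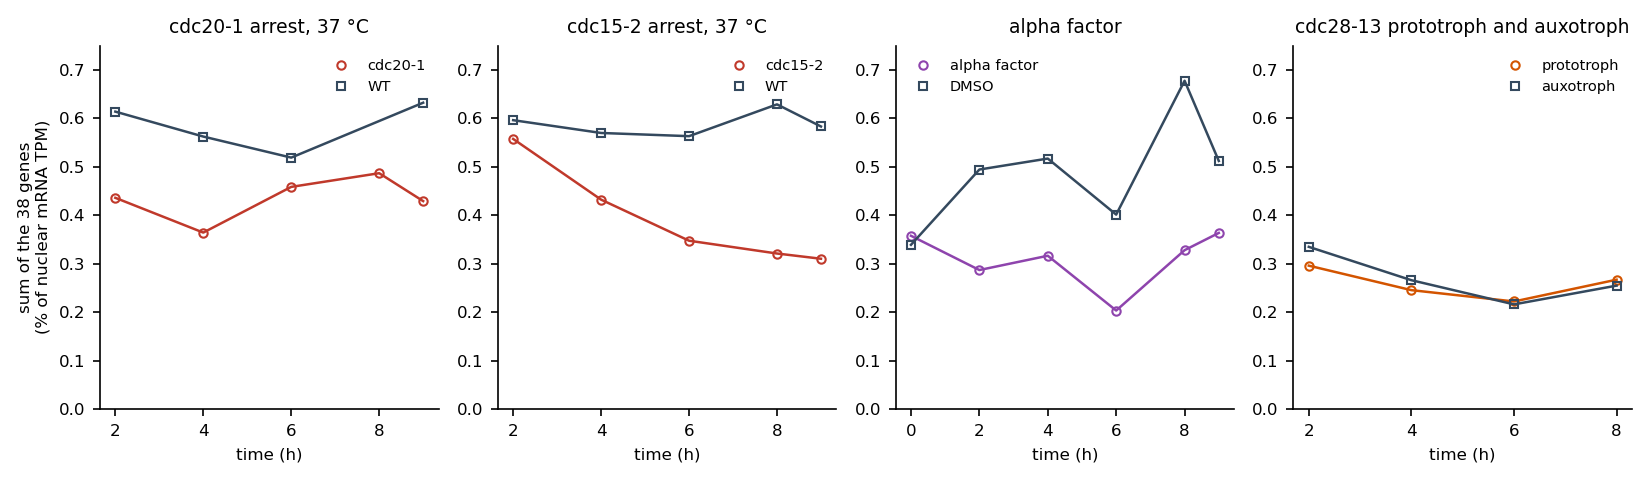
Sum of the 38 genes as a percent of nuclear mRNA TPM against time in hours in the experiments with 1 library per point: cdc20-1 and WT, cdc15-2 and WT, alpha factor and DMSO, prototroph and auxotroph. The arrested cultures lie below their partners after the first time points, and the prototroph and auxotroph lines lie close together.

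With alpha factor the same mRNAs were lower than with DMSO from 2 h on. At 0, 2, 4, 6, 8 and 9 h the 38 genes took 0.357%, 0.287%, 0.316%, 0.203%, 0.328% and 0.363% in cultures given alpha factor, against 0.339%, 0.494%, 0.517%, 0.401%, 0.677% and 0.512% in those given DMSO. The medians were 0.10, -0.80, -0.73, -1.04, -1.18 and -0.56, with 7, 38, 38, 38, 38 and 36 genes below 0 (all genes: 51.6%, 46.4%, 47.1%, 46.9%, 52.8% and 34%). RRP5 had 53.0 rescaled TPM with alpha factor at 8 h, against 230 with DMSO, whereas EMG1 had 212 against 217. The DMSO cultures varied between 0.339% and 0.677% with no treatment, so the size at 1 time is uncertain. Against its own 0.357% at 0 h, the share with alpha factor was lower at 2, 4, 6 and 8 h. It was back at 0.363% at 9 h, so the gap to DMSO then lay in the higher DMSO value.

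The prototrophic and auxotrophic cdc28-13 strains, both arrested, differed little. At 2, 4, 6 and 8 h the shares were 0.296%, 0.245%, 0.222% and 0.267% in the prototroph, against 0.335%, 0.266%, 0.216% and 0.255% in the auxotroph. The medians were -0.21, -0.12, 0.00 and 0.06, and 35, 33, 19 and 16 of the 38 genes lay below 0 (all genes: 70.6%, 62%, 59.3% and 62.6%). At 2 and 4 h the sign turned when each library was centred on its median.

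In both cultures grown into stationary phase the summed level dropped late. In the haploid the 38 genes took 0.285% ± 0.024, 0.399%, 0.391% ± 0.009, 0.353% ± 0.012, 0.0658% ± 0.0079 and 0.0969% ± 0.0088 at 2, 4, 6, 8, 10 and 24 h (SD, n = 2, 1 library at 4 h). In the labelled diploid they took 0.298% ± 0.003, 0.352% ± 0.014, 0.347% ± 0.013, 0.324% ± 0.008, 0.0221% ± 0.0013 and 0.116% ± 0.012. In both strains the drop fell between 8 and 10 h, and no library at 10 or 24 h overlapped one at 2 to 8 h. Against 2 h, 20 genes were called lower in the haploid at 10 h (4.8% of all genes) and 13 at 24 h (10.3% of all genes). In the labelled diploid 35 were called lower at 10 h (15.1% of all genes) and 13 at 24 h (9.5% of all genes). None of the 38 was called higher in any of these comparisons. Leaving out 1 library gave 9 to 16 genes in the haploid at 10 h and 6 to 11 at 24 h, both lowest without the first library at 2 h, and 5 to 10 in the labelled diploid at 24 h, lowest without the second library at 2 h. With only the compared groups in the fit the counts were 4 and 3 in the haploid and 19 and 5 in the labelled diploid at 10 and 24 h.

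RRP5 had 33.9 and 41.7 rescaled TPM in the haploid at 10 h and 26.6 and 50.9 at 24 h, against 247 and 213 at 2 h. In the labelled diploid it had 8.55 and 16.2 at 10 h and 61.9 and 68.6 at 24 h, against 236 and 227 at 2 h. It was called lower in all 4 comparisons, as were UTP10, PWP2, ENP1, BMS1, NAN1, UTP8 and UTP22. The share of all genes called lower in all 4 was not computed. PWP2 was listed at 0 in both labelled diploid libraries at 10 h, against 107 and 89.2 at 2 h, and NAN1, a UtpA gene, was also at 0 in both. With a floor of 3 reads in each library these 2 genes were at least 6.21-fold and 7.08-fold lower. The labelled diploid libraries at 10 h held only 34 and 37 reads on the 38 genes, and 16 genes were at 0 in both. The median log2 difference was -4.74 as fitted and -2.64 with those 16 at their floor, so its size depends on the treatment of zeros. In the haploid at 10 h the median was -2.27 as fitted and -2.15 with 2 such genes at their floor.

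Some of the genes were not clearly lower in every comparison. EMG1 had 77.6 and 63.6 rescaled TPM in the haploid at 10 h, an estimated 6 and 4 reads. At 2 h it had 66.8 and 68.1, an estimated 5 and 4.9 reads, and so few reads cannot show whether its level changed. In the haploid at 24 h it rested on an estimated 1 and 2 reads. EMG1 was at 0 in both labelled diploid libraries at 10 h, against 106 and 144.6 at 2 h. MPP10 had 50.1 and 79.4 rescaled TPM in the haploid at 24 h, against 131 and 78.1 at 2 h, and 110 and 97.7 in the labelled diploid at 24 h, against 92.4 and 86.3. It was called lower at 10 h in both strains and at 24 h in neither. RRP9 had 29.6 and 49.3 rescaled TPM in the haploid at 24 h, against 31.4 and 34.7 at 2 h. These were an estimated 4 and 6 reads against 5.5 and 5.9, again too few to show whether the level changed. Whether the change by 24 h differed between the 2 strains was tested as an interaction. None of the 38 was called (0.279% of all genes in either direction), and 2 were higher and 0 lower at an unadjusted p under 0.05. The standard error of a gene in that test was typically above 1 on the log2 scale, so that only large differences could be called.

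Within 1 h of rapamycin the genes fell in both strains, and the levels then climbed. In the haploid the 38 genes took 0.406% ± 0.024, 0.0398% ± 0.0081, 0.0673% ± 0.011, 0.154% ± 0.010, 0.173% ± 0.007 and 0.249% ± 0.019 at 0, 1, 2, 3, 4 and 5 h (SD, n = 2). In the labelled diploid they took 0.391% ± 0.031, 0.0449% ± 0.0033, 0.0852% ± 0.011, 0.162% ± 0.019, 0.183% ± 0.007 and 0.280% ± 0.006. In both strains every library at 1 and 2 h lay below every library at 3 h or later, and those at 5 h lay below those at 0 h. At 1 h, 34 of the 38 genes were called lower in the haploid (7.72% of all genes) and 31 in the labelled diploid (7.56% of all genes). At 2 h the counts were 29 (8.11% of all genes) and 23 (7.3% of all genes), the last of which was 15 without the second library at 0 h. With only the compared groups in the fit the counts at 1 h were 20 and 18.

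The median log2 difference in the haploid at 1 h was -3.57 as fitted and -3.40 with 4 genes at their floor, while the median over all genes was 0.63. RRP5 had 16.95 and 10.8 rescaled TPM at 1 h and 17.6 and 13.1 at 2 h in the haploid, against 258 and 200 at 0 h. KRE33, which acetylates 18S rRNA, had 0 and 2.87 rescaled TPM at 1 h, against 166 and 129 at 0 h. EMG1 was at 0 in both haploid libraries at 1 h, against 104 and 139 at 0 h, at least 3.59-fold lower with a floor of 3 reads. UTP10 had 30.7 and 26.5 rescaled TPM at 1 h, against 151 and 132 at 0 h, and UTP30, a non-essential relative of ribosomal protein L1 and one of the 4 haploid genes not called, had 25.97 and 11.9, against 107 and 36.2.

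At 5 h the picture had changed. Against 0 h, none of the 38 genes was called in the haploid, where 26.3% of all genes were called in either direction (2 of the 38 were lower at an unadjusted p under 0.05), and RRP5 alone was called lower in the labelled diploid (4.06% of all genes). The medians were still below 0, at -0.74 in the haploid and -0.45 in the labelled diploid, and the all-gene medians were 0.62 and 0.53. When each library was centred on its median, 9 genes in the haploid and 8 in the labelled diploid were called lower at 5 h, and without rescaling 21 and 17. Between 2 and 5 h, 16 genes rose in the haploid (3.61% of all genes) and 11 in the labelled diploid (3.64% of all genes), with medians of 2.13 and 1.90. These 2 counts were lowest, at 5 and 3, without the second haploid and the first labelled diploid library at 5 h, and were 1 and 0 with only the compared groups in the fit. RRP5 had 154 and 105 rescaled TPM at 5 h in the haploid and 105 and 119 in the labelled diploid, and BMS1 had 92.6 and 114 in the haploid at 5 h, against 12.9 and 21.9 at 2 h.

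The genes of small-subunit ribosomal proteins stood differently at 5 h. Of 57, 42 were called lower against 0 h in the haploid (median -2.80) and 40 in the labelled diploid (median -2.67). Among other small-subunit assembly factors 0 of 33, and among large-subunit assembly factors 0 of 54, were called in either strain at that time. The difference between the lists was not tested. Whether the response at 2 h differed between the strains was tested as an interaction, in which limma called none of the 38 (0.712% of all genes in either direction), and 2 were lower at an unadjusted p under 0.05.

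**Figure D4:**
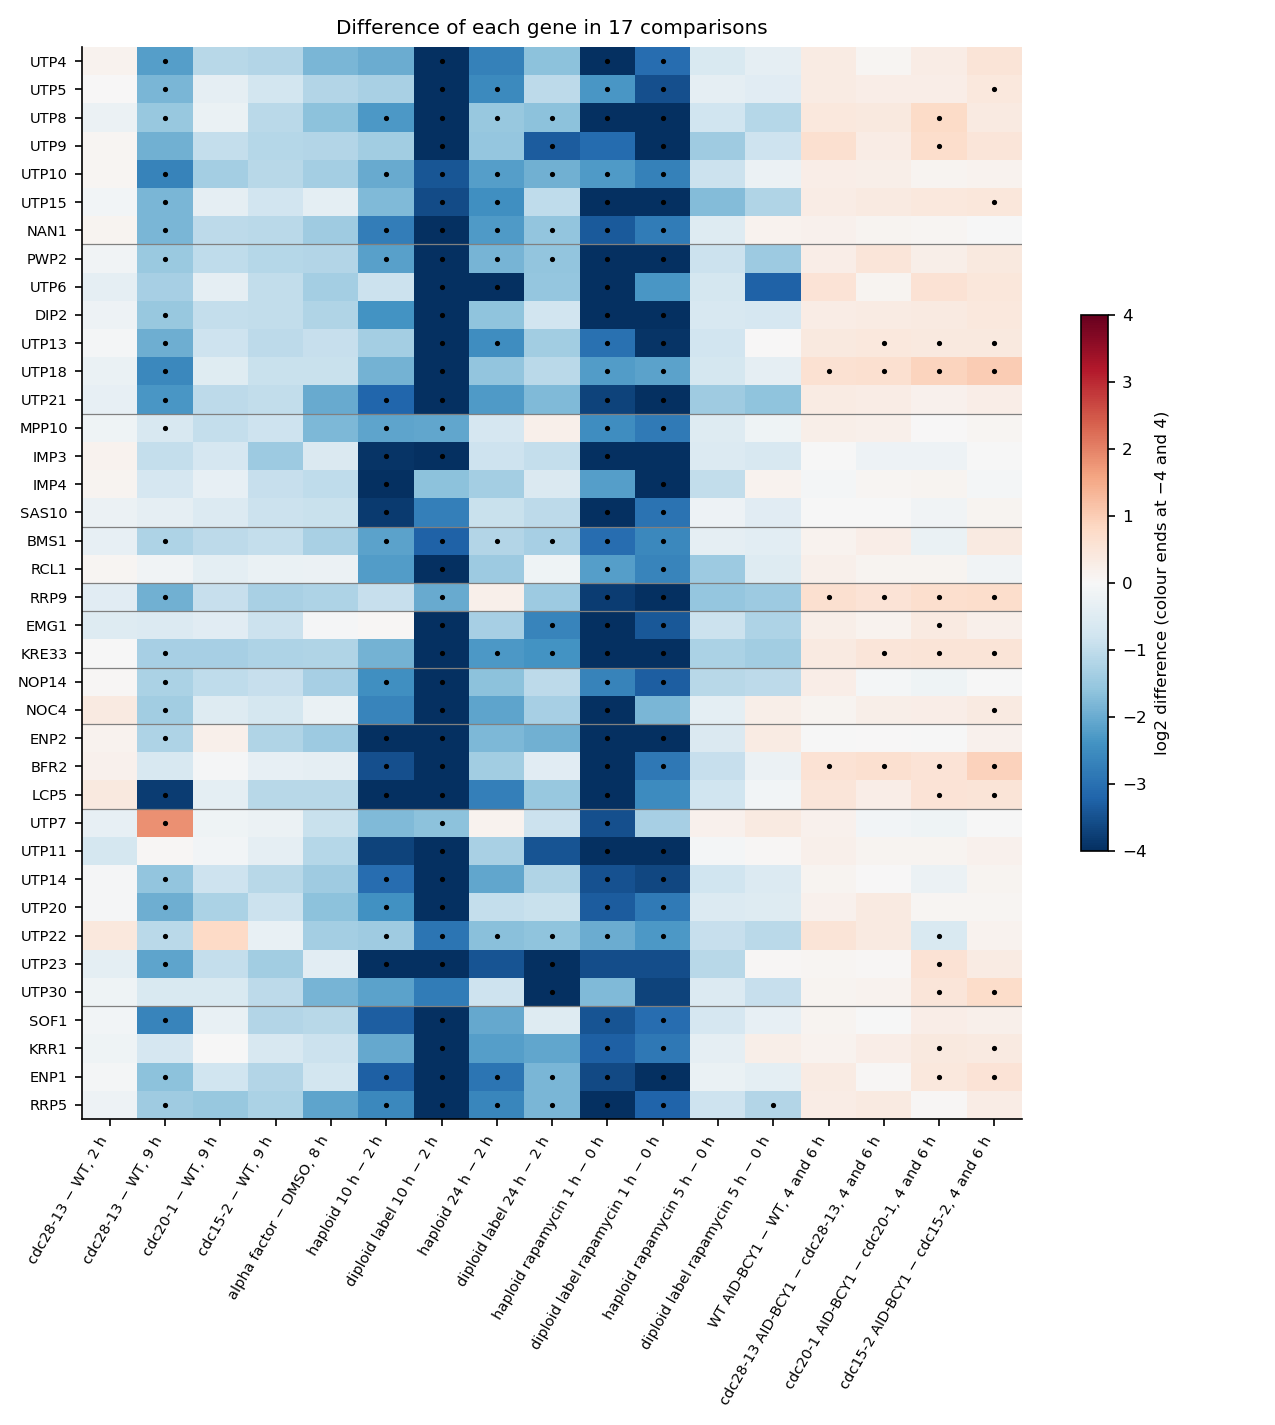
Log2 difference of each of the 38 genes (rows) in 17 comparisons (columns), with the colour scale ending at -4 and 4. The columns of cdc28-13 at 9 h, of 10 h in stationary phase and of 1 h of rapamycin are mostly below 0. UTP7 stands out in cdc28-13 at 9 h, and UTP22 in cdc20-1.

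Across cdc28-13 at 9 h, the haploid at 10 h of growth and the haploid at 1 h of rapamycin, 15 of the 38 genes were called lower in all 3 comparisons, 14 in 2, 7 in 1 and 2 in none. Of the genes tested in all 3, 2.76% were called lower in each. Without 1 of the haploid libraries at 2 or 10 h, 9 to 12 of the 38 were called in all 3, with 9 without either library at 2 h. The genes called in none were UTP9 and UTP30. Of 8 regulator genes, TOD6, a repressor that binds PAC, was called lower in each of these 3, with differences of -1.95 ± 0.39, -4.79 ± 0.46 and -3.53 ± 0.87. DOT6, its paralog, was called higher in cdc28-13 at 9 h (0.64 ± 0.20) and at 1 h of rapamycin (1.02 ± 0.31), and STB3 at 1 h of rapamycin (1.604 ± 0.35). SFP1, IFH1, FHL1 and SCH9 were not called in any of the 3, and CRF1 was called higher at 1 h of rapamycin.

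Bcy1 depletion was used to ask whether forced PKA activity changes the response to the arrest. BCY1 mRNA itself stood at 74.4 to 194.7 rescaled TPM in the AID-BCY1 strains and 119.8 to 471.6 in their parents, and the degron acts on the protein. The PKA-repressed stress gene HSP12 differed by -5.52 ± 0.22 in WT AID-BCY1 against WT over 4 and 6 h, by -5.37 ± 0.22 in the cdc28-13 pair, by -3.28 ± 0.22 in the cdc20-1 pair and by -5.63 ± 0.22 in the cdc15-2 pair. The medians over the processome genes were a little above 0 in each pair. Over 4 and 6 h, 3 genes were called higher in WT AID-BCY1 against WT (9.37% of all genes) and 5 in the cdc28-13 pair (9.47% of all genes), shares of the 38 close to those of all genes. In the cdc20-1 pair 13 were called higher and 1 lower (all genes: 12.1% higher and 22.3% lower), and in the cdc15-2 pair 12 were called higher (11.6% of all genes). The medians were 0.27, 0.23, 0.27 and 0.34 in the order of these 4 pairs, against 0.05, -0.11, -0.08 and -0.08 over all genes. At 2 h, before auxin, they were already 0.29, -0.02, 0.14 and -0.02, with a single WT library. The all-gene medians at 2 h were 0.15, -0.06, 0.09 and -0.0012. The median of the WT pair was thus as high before auxin as after it.

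RRP9, UTP18 and BFR2 were called higher in all 4 pairs, as were 2.42% of all genes. UTP18 had 95.2 and 100 rescaled TPM at 4 h and 75.1 and 83.7 at 6 h in WT AID-BCY1, against 45.9 and 61.8 at 4 h and 46.3 and 81.1 at 6 h in WT. In the cdc15-2 pair it had 116 and 115 at 4 h and 109 and 117 at 6 h in cdc15-2 AID-BCY1, against 69.3 and 47.2 at 4 h and 50.1 and 62.3 at 6 h in cdc15-2. Its differences were 0.61 ± 0.21, 0.65 ± 0.21, 0.88 ± 0.21 and 1.004 ± 0.21 in the WT, cdc28-13, cdc20-1 and cdc15-2 pairs. BFR2 had 200 and 136 rescaled TPM at 4 h and 175 and 139 at 6 h in cdc15-2 AID-BCY1, against 99.8 and 57.6 at 4 h and 93.0 and 97.0 at 6 h in cdc15-2. KRE33 and UTP13 were called higher in 3 pairs, which made 5 of the 38 with at least 3 calls (6.82% of all genes). A difference above 0 in all 4 pairs was seen in 26 of the 38 genes (20.7% of all genes).

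These counts rested on few libraries. Leaving out 1 library at a time gave 0 to 23 genes in the WT pair, with 23 when the second WT library at 6 h was left out. It gave 0 to 5 genes in the cdc28-13 pair, with 0 without the first cdc28-13 library at 6 h, the first AID-BCY1 library at 6 h or the second at 4 h. It gave 1 to 22 in the cdc20-1 pair, with 22 without the first and 1 without the second cdc20-1 library at 4 h, and 3 to 13 in the cdc15-2 pair, with 3 without the second cdc15-2 library at 4 h. The medians over the 38 stayed above 0 but went down to 0.02 in the WT pair and 0.0031 in the cdc20-1 pair. Within a library series (the labels number 2), the median over the 38 was above 0 in 13 of 16 pairs of libraries and ranged between -0.50 and 1.08. The 3 below 0 were all at 6 h: WT and cdc28-13 in the second series and cdc20-1 in the first.

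**Figure D5:**
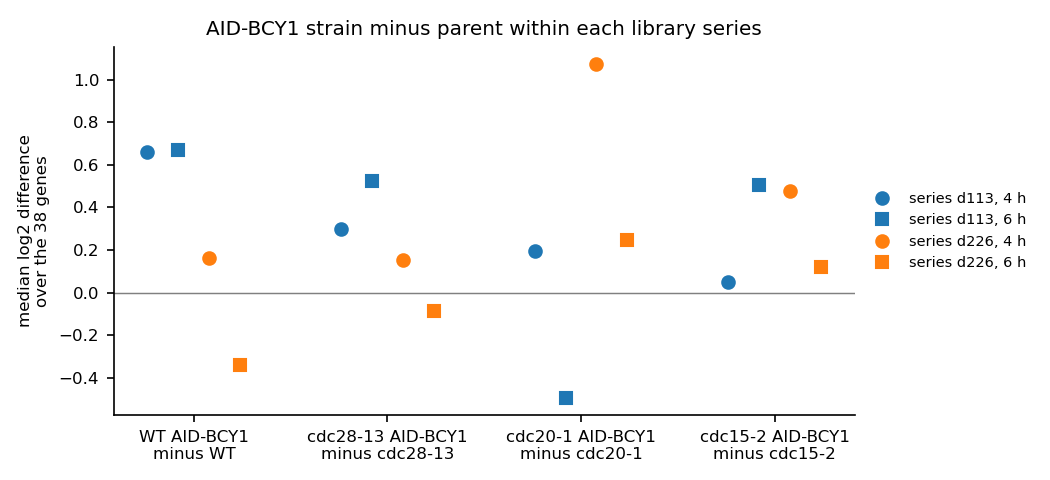
Median log2 difference over the 38 genes, AID-BCY1 strain minus its parent, for each of the 4 pairs of strains, with a point for each library series and time (4 and 6 h). Of the 16 points 13 lie above 0, with -0.50 and 1.08 as the extremes, both from the cdc20-1 pair.

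Before auxin, at 2 h, limma called none of the 38 genes in any pair, and at an unadjusted p under 0.05 1 gene in the WT pair was higher and 1 in the cdc20-1 pair was lower. Of all genes 0.0494% were called in the WT pair, 0.148% in the cdc28-13 pair, 2.6% in the cdc20-1 pair and 0.955% in the cdc15-2 pair. Interactions asked whether the difference between mutant and WT was another with Bcy1 depleted. None of the 38 was called for cdc28-13 (5.37% of all genes in either direction, and 0 of the 38 at an unadjusted p under 0.05) or for cdc15-2 (9.86% of all genes, and 1 of the 38 higher at an unadjusted p under 0.05). For cdc20-1, UTP22 alone was called, and lower (5% of all genes), with a difference of -1.11 ± 0.27 (adjusted p = 0.0081). It had 247 and 273 rescaled TPM at 4 h and 152 and 215 at 6 h in cdc20-1 AID-BCY1, against 413 and 234 at 4 h and 369 and 333 at 6 h in cdc20-1. In WT AID-BCY1 it had 162 and 127 at 4 h and 138 and 122 at 6 h, against 78.6 and 114 at 4 h and 72.6 and 130 at 6 h in WT. PRP31 stood lower with it at 4 and 6 h, at 41.3 to 63.6 in cdc20-1 AID-BCY1 and 81.3 to 100.7 in cdc20-1. It was already lower at 2 h, before auxin, at 57.6 and 70.5 in cdc20-1 AID-BCY1 and 108.5 and 92.4 in cdc20-1, and these strains differed in mating type too. UTP22 was not called in that pair at 2 h, where the differences of the 38 genes reached down to -0.64. The interaction covered 4 and 6 h only, and the part of a strain difference before auxin in it was not tested.

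Of 57 small-subunit ribosomal protein genes, 52 were called higher in the cdc28-13 pair, 52 in the cdc20-1 pair, 55 in the cdc15-2 pair and 5 in the WT pair, beside the shares of all genes given above, with medians of 0.54, 0.72, 0.57 and 0.14. By interaction, the difference from the WT pair was called higher in 9, 34 and 16 of them for cdc28-13, cdc20-1 and cdc15-2, and lower in 1 for cdc20-1. Of the 33 other small-subunit assembly factors 0, 2, 2 and 0 were called higher in the cdc28-13, cdc20-1, cdc15-2 and WT pairs, and of the 54 large-subunit factors 0, 5, 6 and 0. DOT6 was called lower in all 4 pairs, with log2 differences between -0.49 and -1.23, and TOD6 in none.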

How the data were processed

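The authors deposited 1 table of log2(TPM + 1) values per gene for all 159 libraries, made from Illumina reads with STAR 2.5.3a and RSEM 1.3.0 on the genome build sacCer3, per the labels. No counts were used here. The labels name polyA RNA for the cdc20, cdc15 and prototrophy experiments and total RNA for the rest, while the study's methods name total RNA for the cdc28, stationary phase and rapamycin experiments only. The 38 genes and the gene lists beside them were chosen with earlier results of these data known.

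TPM values were recovered from the deposited log2 values and rescaled to 1000000 over 6678 nuclear open reading frames outside the ribosomal DNA. The 7 open reading frames inside it were left out, since they took up to 87.5% of the nuclear open reading frame total. Genes with a mean log2 value of at least 1 in an experiment were fitted by group with limma 3.58.1 (R 4.3.3, empirical Bayes with a trend), with Benjamini-Hochberg adjustment over all genes kept and a threshold of 0.05. In the Bcy1 experiment the library series was a covariate. Samples were grouped by the labels, and experiments were never compared with each other in a test. Single-library comparisons give values only.

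Reads were estimated in 3 experiments from TPM times coding length less 50 bases, in genes over 800 bases, where 90.7% to 95.5% of the low values (up to 5 reads) lay within 0.1 of a whole number. Estimated reads and floors of 3 reads cover counting error only. The 38 symbols and the motifs were read from the R64 annotation and genome of NCBI. Per-library values were named for UTP10, PWP2, MPP10, BMS1, RRP9, UTP22, UTP30, RRP5, EMG1 and ENP1 and for genes with the largest or smallest differences, by a rule set with the lists. SER3, PRP31 and CTT1 were named after their values were seen. The fits were tested on simulated data. Alternatives were other scalings, a pseudocount of 0.1, filters, a replicate block, the compared groups alone, each library left out in turn and, added after the data were seen, scaling to the spike-in rows and values within a library series.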

Additional observations from a re-analysis of the deposited data

Results flagged for a closer look

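The difference between cdc28-13 and WT changed between 2 h and 9 h, by an interaction test, in 22 of the 38 genes downward and in UTP7 upward, where the change was 2.14 on the log2 scale. The convergent neighbour SER3 was also higher in the cdc28-13 libraries at 8 and 9 h, as UTP7 was, and its part in the UTP7 values was not tested. In the single libraries of cdc20-1 and cdc15-2 at 9 h, SER3 stood at 281 against 87.3 and 169.3 against 96.56 rescaled TPM in WT. UTP7 stood there at 172 against 194 and 149.6 against 175.6.

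UTP22 differed between strains in 2 ways. The AID-BCY1 difference in cdc20-1 less that in WT was -1.11 by an interaction test over 4 and 6 h. The part of strain differences before auxin in that value was not tested. In the single-library time courses UTP22 was higher in cdc20-1 than in WT at all 4 times, by at least 0.79 on the log2 scale, and lower in cdc15-2 than in WT at all 5 times, where the highest difference was -0.19. This second contrast was not tested. By the mating-type genes, cdc20-1 differed from its AID-BCY1 partner and from WT of the cdc20 experiment. In the Bcy1 experiment cdc20-1 and WT both expressed STE3, and UTP22 differed between them by 1.77 ± 0.19. The part of mating type in the UTP22 values was not tested.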

How the results depend on the processing

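None of 382 called gene values changed sign in 3007 alternatives, and the call was lost in 154 of them. These alternatives were the other scalings, centring, the pseudocount, the filters and the blocks. Leaving out a library and fitting the compared groups alone were run on counts only, not on single gene values. Of 291 alternatives to the 34 counts of called genes, 239 stayed within 1.5 times the count. The others follow as counts of the 38 genes, and the cause was not tested. Scaling to all nuclear open reading frames gave 31 for cdc28-13 at 4 h and 26 at 6 h, 23 for the haploid at 24 h, and 5 and 7 at 5 h of rapamycin in the haploid and labelled diploid. Without rescaling the counts were 35, 31, 28, 21 and 17 in the same order, 27 for the labelled diploid at 24 h, 35 at 2 h of rapamycin, 17 for 5 h against 2 h, and 0, 2, 4 and 5 in the WT, cdc28-13, cdc20-1 and cdc15-2 AID-BCY1 pairs. Centring each library on its median gave 20 for the haploid at 24 h, 9 and 8 at 5 h of rapamycin, 11, 20, 20 and 28 in the 4 AID-BCY1 pairs, 1 in the cdc20-1 pair at 2 h, and 19, 13 and 9 for cdc28-13, cdc20-1 and cdc15-2 against WT in the Bcy1 experiment. Scaling to the spike-in rows, undocumented and chosen after seeing the data, gave 3 and 11 for cdc28-13 at 4 and 6 h, 11 for the haploid at 10 h, and 2 and 6 for the labelled diploid at 5 h of rapamycin against 0 and 2 h. A filter at 3 gave 5 in the WT pair. With only the compared groups in the fit, which leaves fewer samples, the counts were 1 for cdc28-13 at 6 h, 4 and 3 for the haploid and 19 and 5 for the labelled diploid at 10 and 24 h, 20 and 18 at 1 h of rapamycin, 2 and 2 at 5 h, 1 and 0 for 5 h against 2 h, 0, 4 and 20 in the WT, cdc20-1 and cdc15-2 pairs, and 0 for the cdc20-1 interaction and for cdc15-2 against WT.

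Equal replicate numbers did not pair libraries in the cdc28, stationary phase and rapamycin experiments (median correlations of deviations 0.0031, -0.00086 and 0.0076), and the replicate block moved no count there past 1.5 times (26 for cdc28-13 at 9 h). In the Bcy1 experiment the median correlation was 0.235, and without the block for library series the WT pair had 1 and cdc15-2 against WT had 0.

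Leaving out 1 library gave 3 to 5 genes for cdc28-13 at 6 h (3 without WT replicate 1 or 2), 9 to 16 for the haploid at 10 h and 6 to 11 at 24 h (over 1.5 times fewer without either 2 h library and, for 10 h, replicate 2 at 10 h), 5 to 10 for the labelled diploid at 24 h (likewise without either 2 h library), 15 to 18 at 2 h of rapamycin (lowest without replicate 2 at 0 h), 0 to 1 at 5 h (0 without either library at 0 h or replicate 2 at 5 h), 5 to 12 and 3 to 6 for 5 h against 2 h in the haploid and labelled diploid (lowest without replicates 2 and 1 at 5 h, and over 1.5 times fewer without the other 5 h library, replicate 1 at 2 h or, in the labelled diploid, replicate 2 at 2 h), and 0 to 1 for the interaction at 2 h (1 without either haploid 2 h library). In the Bcy1 experiment it gave 0 to 23, 0 to 5, 1 to 22 and 3 to 13 in the 4 pairs, 5 to 20, 2 to 8 and 0 to 3 for the 3 mutants against WT (highest without WT replicate 1 at 6 h, cdc20-1 replicate 1 at 4 h, and WT replicate 1 at 6 h or cdc15-2 replicate 1 at 4 h), and 1 to 2 for the cdc20-1 interaction (2 without WT replicate 2 at 6 h). The count of 2 for cdc20-1 against WT came without replicate 2 at 4 or 6 h of either strain, where the median over the 38 turned above 0 (0.04 to 0.21, against -0.02). The cdc15-2 count was 0 without cdc15-2 replicate 1 at 6 h or WT replicate 2 at 4 or 6 h. In the WT, cdc28-13, cdc20-1 and cdc15-2 pairs the count moved past 1.5 times without 7, 5, 5 and 4 of the 8 libraries at 4 and 6 h.

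Centring moved medians of the single-library comparisons, cdc20-1 at 2, 4, 6 and 9 h to -0.89, -1.07, -0.68 and -1.14, cdc15-2 at 4, 6, 8 and 9 h to -0.64, -1.09, -1.47 and -1.55, alpha factor at 2 and 9 h to -0.94 and -0.996, and the prototroph at 2, 4, 6 and 8 h to 0.0061, 0.026, 0.18 and 0.34, which reversed the first 2. Without rescaling they were -0.81 for cdc20-1 at 9 h, -0.94, -1.26 and -1.32 for cdc15-2 at 6, 8 and 9 h, and -0.97, -0.98, -1.39 and -0.76 for alpha factor at 2, 4, 8 and 9 h. Scaling to all nuclear open reading frames gave -1.21 and -1.32 for cdc15-2 at 8 and 9 h. Low read numbers limited the stationary phase and rapamycin values, with 34 reads on the 38 genes in the lowest library.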
